A study of Mus musculus with 6 samples.

Results

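The genes described here encode secreted proteins of mucosal defence: Mmp7, Lyz1, Lyz2, Dmbt1, Wfdc18, Wfdc2, Reg3b, Reg3g and Ang4, together with Pigr, the receptor that carries secreted antibody across the epithelium. These 10 genes, of 52249 in the deposited table, were taken by gene symbol. They were chosen by a reader who knew the differences between the groups in these same libraries, so their levels and fold changes are given as a description, without a p-value. RNA came from organoids of mouse intestine, a culture in which gut epithelium grows as small hollow bodies. All 6 libraries carried the Apc-knockout genotype, which removes a restraint on WNT signalling. In 3 of them, called control here, this was the whole labelled genotype, and the other 3 were labelled as also overexpressing IGF2BP3, an RNA-binding protein, and are called OE-labelled. How the knockout and the overexpression were made, the strain, sex and age of the animals, the gut segment and the culture conditions are not given in the sources used here. The labels do not say that replicates came from separate animals or cultures, so the errors below measure the spread between libraries only.

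Paneth cells sit at the base of the crypts of the small intestine, beside the stem cells, and release granules of antimicrobial proteins into the crypt. Their classical products are the alpha-defensins, lysozyme and the ribonuclease Ang4, and in the mouse the metalloproteinase Mmp7 cuts the inactive defensin precursors into their active forms. Enterocytes and goblet cells add a further layer, including the C-type lectins Reg3b and Reg3g, which act on bacteria at the epithelial surface, and the scavenger receptor protein Dmbt1, which binds bacteria in mucus. Wfdc2 and Wfdc18 belong to the WAP family, small secreted proteins held together by disulfide bonds, several of which inhibit proteases.

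Promoter sequences are shown for the 4 genes that stood more than 2-fold higher in OE-labelled libraries and had an entry in the reference table, because all 4 held the letters TATAAA close to the start of transcription. The stretches below are 120 bases long, come from RefSeq on GRCm38.p6, run 5′ to 3′ on the gene's strand and end with the last base of that match. Capitals mark TATAAA and, in Reg3b, the STAT-type match TTCNNNGAA.
Mmp7, plus strand, chr9:7691950-7692069: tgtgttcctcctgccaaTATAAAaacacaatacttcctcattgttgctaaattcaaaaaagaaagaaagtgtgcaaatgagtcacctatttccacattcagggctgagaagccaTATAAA
Wfdc18, plus strand, chr11:83708859-83708978: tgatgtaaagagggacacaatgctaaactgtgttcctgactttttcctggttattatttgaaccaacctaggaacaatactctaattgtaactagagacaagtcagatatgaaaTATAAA
Reg3b, plus strand, chr6:78370742-78370861: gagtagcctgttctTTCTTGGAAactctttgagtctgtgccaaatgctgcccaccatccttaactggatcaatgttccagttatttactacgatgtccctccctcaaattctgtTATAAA
Reg3g, minus strand, chr6:78468896-78469015: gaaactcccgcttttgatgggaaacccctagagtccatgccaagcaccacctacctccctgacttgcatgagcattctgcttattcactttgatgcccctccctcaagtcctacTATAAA

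Mmp7 has another window in the table, at a different start, without TATAAA. The match shown last in each stretch began 26 bases before the RefSeq start in Mmp7, 31 in Wfdc18, 29 in Reg3b and 27 in Reg3g. In GENCODE, Reg3b begins earlier, at 78370657, so the Reg3b stretch lies inside the gene as annotated there. Over all 32851 RefSeq promoter windows, each holding 250 bases before and 50 after a start, 8.3% held TATAAA on the gene's strand and 1.8% held it beginning 20 to 35 bases before the start. None of the windows of Wfdc2, Pigr, Lyz1, Lyz2 or Ang4 held these letters, and Dmbt1 was not matched, so that 9 of the 10 genes had a window. This motif was added after the promoters had been seen. The other motifs were the TCF/LEF core AACAAAG with its variants beginning with ATC, TAC or TTC in place of AAC, found on either strand in 16.9% of windows, TTCNNNGAA, found in 8.3%, and CAGCTG, found in 16.3%. A TCF/LEF core was present in the windows of Mmp7 and Reg3g, and TTCNNNGAA in those of Reg3b, Ang4 and Pigr. CAGCTG was present in those of Lyz1 and Lyz2. No motif overlapped another in the stretches shown. When the 250 bases before the start were aligned, 173 were identical between Reg3b and Reg3g and 200 between Lyz1 and Lyz2, and at most 145 in the other pairs aligned. As a share of aligned bases alone, the value of Reg3b and Reg3g (70.0%) was also reached by Wfdc18 and Reg3b (70.2%), so on this measure the Reg3 pair did not stand apart. A match of letters is a description and does not show that a factor binds there.

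Libraries held 2180116 to 2519917 counts, and 10687 genes passed the count filter. Igf2bp3 was counted at 1, 0 and 0 in the control libraries against 1, 0 and 0 with the OE label, so its counts gave no check of the label, and whether the construct carries the counted 3′ end is not given in the sources used here. Apc was counted at 80.4 ± 4.30 CPM (the usual depth-scaled count, here with TMM factors) in the control libraries against 62.0 ± 2.37 CPM with the OE label (SD, n = 3). These counts do not separate mutant from intact transcripts. The library names carry one series number for all control libraries and another for all OE-labelled libraries, so a difference between the library series and the labelled difference cannot be told apart in these data. A gene is called higher or lower here where the edgeR adjusted p over all 10687 genes was below 0.05, which 16.5% of tested genes passed in the higher direction and 12.7% in the lower. This balance moved with the scaling, from 1765 higher and 1353 lower with TMM factors to 1536 and 1541 with DESeq2 size factors, 2035 and 1154 when scaled by library totals, and 1491 and 1622 without mitochondrial genes and CT010467.1. For 5 of the 6 genes tested here, all but Wfdc18, the coefficient of variation was higher among OE-labelled than among control libraries. Counts came from the 3′ end of transcripts, so a level does not scale with transcript length. Genes still differ in GC content and shared sequence, so orders and ratios between genes below describe counts only.

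Of the listed Paneth markers, Mmp7 was the only one above the level of 3 counts, and most had no counts at all. Lyz1, the Paneth lysozyme, and Ang4 had 0 counts in each of the 6 libraries, and so had Lyz2, the lysozyme of macrophages. With 0 counts, a level of up to 3 counts per library is allowed, which is 1.18 to 1.41 CPM, for counting error only. Of the 12 Paneth markers listed, 10 were at 0 in all libraries, among them the defensins Defa17, Defa21, Defa22, Defa24, Defa26 and Defa30, and Itln1 lay under the level of 3 counts. The summed level of the list was therefore that of Mmp7 apart from at most 0.787 CPM of Itln1, at 31.3 to 34.6 CPM in the control libraries against 57.9 to 86.5 CPM with the OE label. By these markers the genes are not described as Paneth cell genes below.

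How reads with several possible origins were counted is not given in the sources used here, so the sequences were checked for shared 3′ ends. In the last 400 bases of the longest annotated transcript, 19.1% of the 50-base words of Lyz1 also occurred in another gene (Lyz2), as did 17.7% of those of Lyz2 (in Lyz1) and 8.8% of those of Ang4. The remaining words of these 3 genes were unique among annotated transcripts. Among the defensins the shared part ran from 29.6% in Defa24 to every word in Defa2, Defa20, Defa31, Defa36 and Defa37, so that a 0 there is less informative. No word was shared for Mmp7, Dmbt1, Wfdc18, Wfdc2, Reg3b or Reg3g.

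Of the 10 genes, 7 had counts and 6 passed the filter. All 6 reached the filter's level of 4.41 CPM in every control library and in every OE-labelled library, so none passed through 1 group alone. All 6 were called higher in OE-labelled libraries and 0 were called lower, against 16.5% and 12.7% of all tested genes. For all 6, each OE-labelled library lay above each control library, a pattern found for 25.3% of tested genes, and 5 were called with at least a 2-fold difference, against 2.40% of tested genes. The choice of the genes used this contrast, so these counts are not evidence about the group. The median log2 fold change of the 6 was 1.44, with a range from 0.33 to 2.31, against a median of 0.04 over all tested genes. In bulk libraries, more cells that make a transcript and more transcript per cell cannot be told apart.

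**Figure D1:**
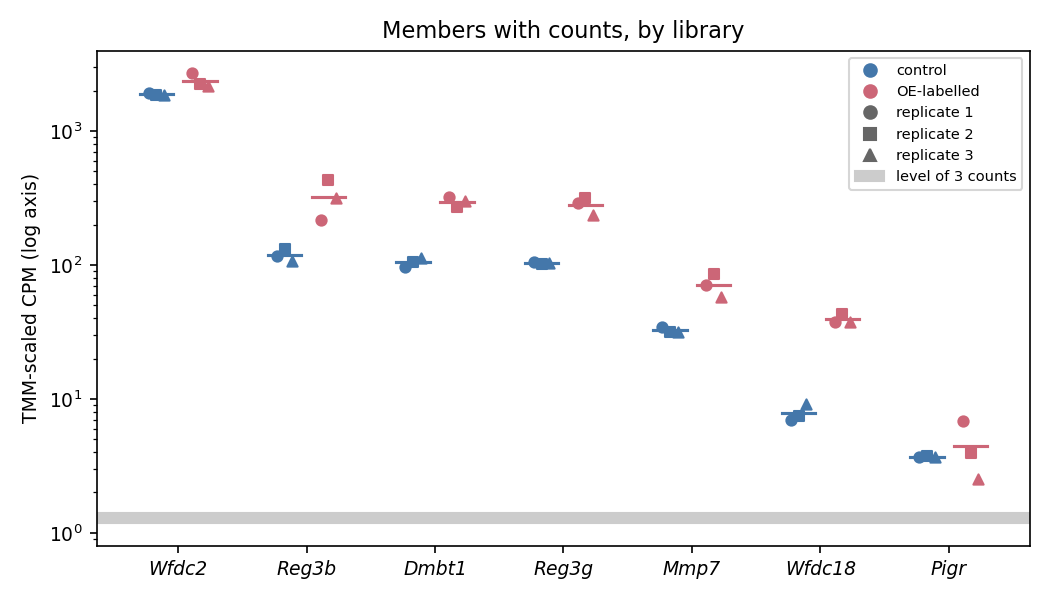
Level of the 7 genes with counts, as TMM-scaled CPM on a log axis, in each of 3 control (blue) and 3 OE-labelled (red) libraries; marker shapes give the replicate, short lines the group mean, and the grey band the level of 3 counts. Each OE-labelled library lies above each control library for 6 genes, while the groups overlap for Pigr, and Wfdc2 stands highest in every library.

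Mmp7 (ENSMUSG00000018623, plus strand of chromosome 9, 7692090 to 7699585 in GRCm38) encodes matrilysin, the enzyme that activates defensins. Its counts were 75, 67 and 68 in control replicates 1 to 3 and 174, 218 and 136 in OE-labelled replicates 1 to 3. This gave 34.6, 31.4 and 31.3 CPM in the control libraries against 70.5, 85.7 and 57.5 CPM with the OE label. The control values lay close together, and the OE-labelled values were all higher but spread widely. The log2 fold change was 1.14 (SE 0.16), or 2.20-fold. An exon of AV064505 overlaps Mmp7 on the opposite strand, and AV064505 had 0 counts in every library.

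The lectin genes Reg3b and Reg3g lie in the Reg cluster of chromosome 6, at 78370657 to 78373466 on the plus strand and 78466269 to 78468872 on the minus strand. Reg3b was counted at 116.1, 130.4 and 107.3 CPM in the control libraries against 218.0, 427.4 and 315.4 CPM with the OE label. It showed the largest spread among the OE-labelled libraries of the 6 genes tested, with a coefficient of variation of 32.7% against 9.9% in control, and replicate 1 lowest. Reg3g was counted at 105.1, 102.3 and 103.2 CPM in the control libraries against 291.7, 316.6 and 234.2 CPM with the OE label, with replicate 3 lowest. Their log2 fold changes were both 1.44 (SE 0.20 for Reg3b and 0.13 for Reg3g). The order of the OE-labelled libraries differed between these neighbours: the ratio of Reg3b to Reg3g counts was 0.75 in replicate 1 and 1.35 in replicates 2 and 3, against 1.04 to 1.28 in control libraries. The mean ratio was 1.14 ± 0.123 in the control libraries against 1.15 ± 0.346 with the OE label (SD, n = 3), so the groups overlapped in it.

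Dmbt1 (ENSMUSG00000047517, plus strand of chromosome 7, 131032053 to 131121630) encodes a large secreted protein of scavenger receptor domains that binds bacteria. It was counted at 96.8, 104.6 and 112.4 CPM in the control libraries against 321.3, 271.7 and 298.1 CPM with the OE label. Dmbt1 differed little between replicates in either group, with coefficients of variation of 7.5% and 8.3%. The log2 fold change was 1.5 (SE 0.11), or 2.84-fold.

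The WAP family members differed most from each other. Wfdc18 (ENSMUSG00000000983, plus strand of chromosome 11, 83709015 to 83711348) had 15, 16 and 20 counts in the control libraries against 92, 109 and 89 with the OE label. Its levels of 6.91, 7.51 and 9.21 CPM in the control libraries against 37.3, 42.9 and 37.6 CPM with the OE label gave the highest log2 fold change of the 6, 2.31 (SE 0.20), or 4.96-fold. The groups were far apart, although the control values rested on few counts.

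Wfdc2 (ENSMUSG00000017723, plus strand of chromosome 2, 164562413 to 164568510) was the most abundant of the 10 genes and stood between rank 22 and rank 35 of all genes in each library. Its levels were 1926, 1864 and 1846 CPM in the control libraries against 2696, 2257 and 2152 CPM with the OE label. OE-labelled replicate 1 was well above the other OE-labelled libraries, which lay closer to control. The log2 fold change was 0.33 (SE 0.10), or 1.26-fold, inside the 10th to 90th percentile of all tested genes (-0.63 to 0.68). Without OE-labelled replicate 1 it was 0.18. The call was lost in 10 of 16 alternatives, including DESeq2 size factors (0.29), DESeq2's test (0.29), leaving out any 1 control library, and leaving out OE-labelled replicate 1 or 2. With an offset for GC content the value was 0.09, and the longest transcript of Wfdc2 has 58.0% GC, the highest of the 10 genes, whose lowest is Reg3g at 42.2%. The ratio of Wfdc2 to Wfdc18 counts ran from 200.3 to 278.7 in control and from 52.6 to 72.3 in OE-labelled libraries.

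**Figure D2:**
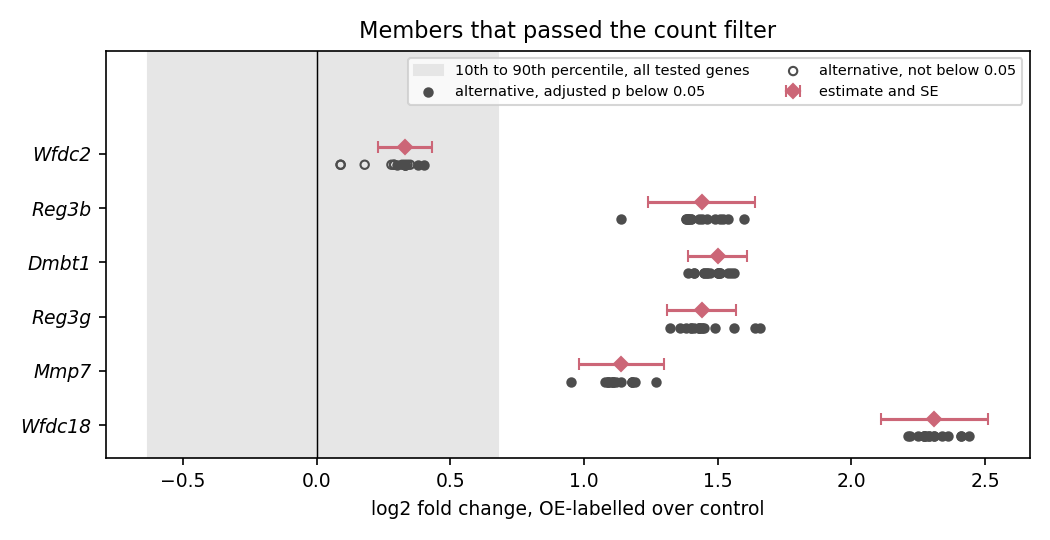
Log2 fold change of OE-labelled over control for the 6 genes that passed the count filter, with the SE (red diamonds) and the values under 16 other ways of processing (grey points, open where the adjusted p was not below 0.05); the shaded band spans the 10th to 90th percentile of all tested genes. The points of Wfdc2 reach down to 0.09 inside the band, while those of the other 5 genes stay above 0.68.

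Pigr (ENSMUSG00000026417, plus strand of chromosome 1, 130826684 to 130852249), which moves IgA and IgM through epithelial cells into the lumen, was nearly silent. It had 8, 8 and 8 counts in the control libraries against 17, 10 and 6 with the OE label, or 3.69, 3.75 and 3.69 CPM against 6.89, 3.93 and 2.54 CPM. The groups overlapped, and the OE-labelled values lay on both sides of control. Pigr did not pass the count filter, and in a fit without that filter its log2 fold change was 0.23 (SE 0.43).

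In control libraries the levels of Dmbt1 (96.8 to 112.4 CPM) overlapped those of Reg3b (107.3 to 130.4 CPM) and those of Reg3g (102.3 to 105.1 CPM). Each control value of Reg3b lay above each of Reg3g, whereas in OE-labelled libraries the levels of all 3 genes overlapped. The order was otherwise the same in both groups, with Wfdc2 above these 3 genes, followed by Mmp7, Wfdc18 and Pigr. Together the 10 genes took 0.220% ± 0.00306 of all counts in the control libraries against 0.341% ± 0.0231 with the OE label (SD, n = 3). Most of this was Wfdc2, which made up 83.1% to 84.1% of the sum in the control libraries against 66.3% to 74.0% with the OE label. Without Wfdc2 the sum was 0.0362% ± 0.000929 of counts in the control libraries against 0.102% ± 0.0118 with the OE label (SD, n = 3).

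**Figure D3:**
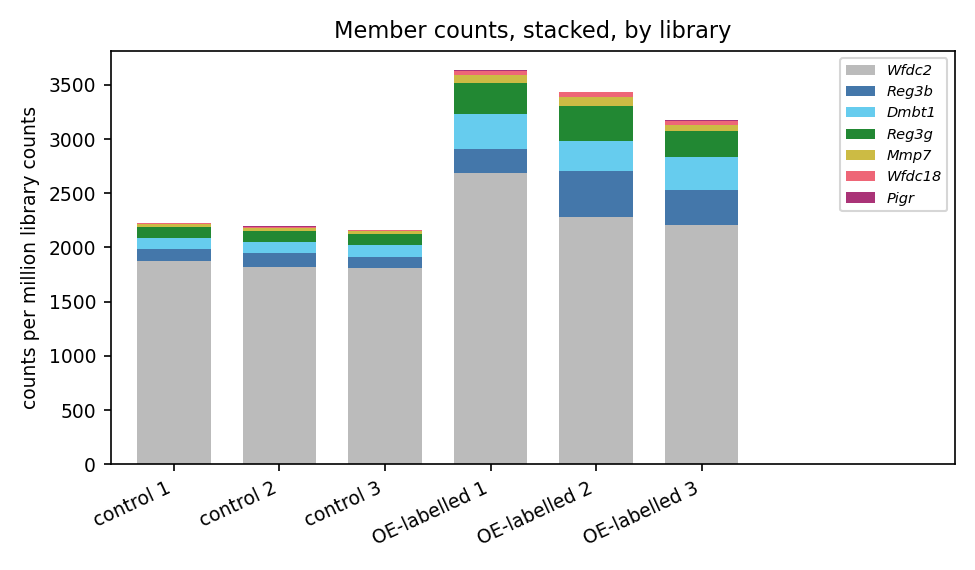
Counts of the 7 genes with counts, stacked, as CPM by library total, for each of the 6 libraries. Wfdc2 (grey) fills most of every bar, and the coloured part above it is larger in each OE-labelled library than in any control library.

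For each of the 6 genes, the gene with the nearest profile was found over the 6 libraries, as the smallest Euclidean distance between mean-centred log2 CPM among 5249 other genes whose log2 CPM averaged 5 or more. Reg3b was nearest to Mt2 (distance 0.24) and Reg3g to Mt1 (0.27), which encode metallothioneins. Dmbt1 was nearest to Cyb5a (0.17), Mmp7 to Atpif1 (0.19), Wfdc2 to Actb (0.07) and Wfdc18 to Aqp1 (0.52). Among these candidates the Wfdc18 profile had no close match, and its nearest gene had a lower log2 fold change (1.98). Genes of lower average level were not searched, and Wfdc18 itself had means of only 7.88 CPM in control and 39.25 CPM with the OE label. Centring over all 6 libraries keeps in each profile the group difference by which these genes were chosen. A near gene therefore has a similar log2 fold change, such as Mt2 (1.38) and Mt1 (1.29). These distances are descriptions without a test, and shared regulation was not tested.

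The relatives of these genes were mostly silent, and those with counts differed between families. In the Reg family, Reg1 was the only relative tested of 5 listed; it encodes a secreted lectin and lies between Reg3b and Reg3g. Reg1 had 84, 74 and 58 counts in the control libraries against 218, 296 and 406 with the OE label, and rose by 1.91 in log2 units (SE 0.23, edgeR adjusted p = 0.000177). Its OE-labelled replicate 3 was highest, whereas that replicate was lowest for Reg3g. Of 21 WAP relatives 2 were tested and both rose. Slpi, which encodes a secreted inhibitor of neutrophil elastase, went from 18.4 ± 3.74 to 44.5 ± 7.74 CPM (SD, n = 3; log2 fold change 1.27, SE 0.20, edgeR adjusted p = 0.00072), and its exons overlap those of a microRNA gene. Wfdc1 rose from 6 to 10 counts per control library to 26 to 28 per OE-labelled library (log2 fold change 1.48, SE 0.30, edgeR adjusted p = 0.00317).

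No relative of lysozyme reached the filter among 9 listed. Of 9 angiogenin relatives, 2 were tested and neither was called: Rnase1 had a log2 fold change of 0.57 (SE 0.39) and Rnase4 of 0.81 (SE 0.42), where Rnase4 shares exons with Ang. Both moved with single libraries: Rnase4 was 0.28 without OE-labelled replicate 3, and Rnase1 ran from 0.26 without control replicate 3 to 0.92 without control replicate 2. Rnase4 was called in 1 of 16 alternatives, a replicate block together with the GC offset (0.90, edgeR adjusted p = 0.0495). Of 23 metalloproteinases and their inhibitors, 5 were tested and 1 was called, the membrane-bound Mmp15, which rose from 52.5 ± 5.66 to 96.8 ± 8.61 CPM (SD, n = 3; log2 fold change 0.88, SE 0.13, edgeR adjusted p = 0.000611). Mmp11 (-0.17, SE 0.22), Mmp14 (-0.07, SE 0.16) and the inhibitors Timp2 (0.39, SE 0.16) and Timp3 (-0.23, SE 0.09) were not called. Timp2 was called without OE-labelled replicate 3 (0.59, edgeR adjusted p = 0.000436) or without the count filter (0.36, edgeR adjusted p = 0.0125). Timp3 was called without the mitochondrial genes and CT010467.1 (-0.29, edgeR adjusted p = 0.0355), and without OE-labelled replicate 1 (-0.27, edgeR adjusted p = 0.0157) or 2 (-0.33, edgeR adjusted p = 0.0346). Exons of Mmp11 and of Timp3 each overlap a gene on the opposite strand.

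Beyond the 10 genes, a list of 114 other genes of Paneth granules and mucosal defence was counted in the same fit. The list holds some family relatives described above, among them Reg1 and Slpi, both called higher. Of its genes 35 were tested, 18 were called higher, 2 lower and 15 neither, with a median log2 fold change of 0.57 against 0.04 over all tested genes. Among all tested genes the shares called were 16.5% higher and 12.7% lower. The list was chosen with earlier results of these data known, so its counts are not evidence about such genes. In the Paneth granule part, 31 of the 38 genes in the table were at 0 in all libraries and 5 were tested, of which 4 rose. These were Spink4, a secreted protease inhibitor of secretory cells (480.3 to 1155 CPM, log2 fold change 1.27), the surface protein gene Cd24a (0.71), the stress-induced gene Nupr1 (0.63) and the serine protease gene Habp2 (0.61), with edgeR adjusted p from 1.79e-05 to 0.00909. The call of Habp2 was lost without control replicate 1 (edgeR adjusted p = 0.0577) or control replicate 3 (edgeR adjusted p = 0.0509), and an exon of Habp2 overlaps a gene on the opposite strand. Cd24a and Nupr1 are not particular to Paneth cells.

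In the other part of the list, 30 of 62 genes were tested, 14 were higher and 2 lower. Tff2, a trefoil peptide of mucus, rose from 35.6 ± 6.58 to 123.0 ± 19.0 CPM (SD, n = 3; log2 fold change 1.79, SE 0.16, edgeR adjusted p = 3.16e-05), and Tff3 by 1.25 (SE 0.12). Lcn2, which sequesters bacterial siderophores, rose from 27.5 ± 2.62 to 66.8 ± 6.48 CPM (SD, n = 3; log2 fold change 1.28, SE 0.15, edgeR adjusted p = 0.000144). The cornified envelope gene Sprr2a3 rose by 1.30 (SE 0.11), but it belongs to a family of near-identical copies and its counts are uncertain. Named after their values were seen, Ltf, which encodes lactoferrin, rose by 1.67 (SE 0.20, edgeR adjusted p = 0.000172), and the 2 genes that fell were Muc1, a membrane mucin (-1.63, SE 0.22, edgeR adjusted p = 0.000329), and the protease gene Prss27 (-0.85, SE 0.30, edgeR adjusted p = 0.0489). The call of Prss27 was lost in 8 of 16 alternatives, among them DESeq2's test (-0.90, adjusted p = 0.109), leaving out any 1 control library (edgeR adjusted p from 0.0583 to 0.221) and leaving out OE-labelled replicate 1 (edgeR adjusted p = 0.0818) or 2 (edgeR adjusted p = 0.0789). The gel-forming mucin Muc2 was low, at 4.03 ± 2.13 and 4.74 ± 0.108 CPM (SD, n = 3), and was not called.

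**Figure D4:**
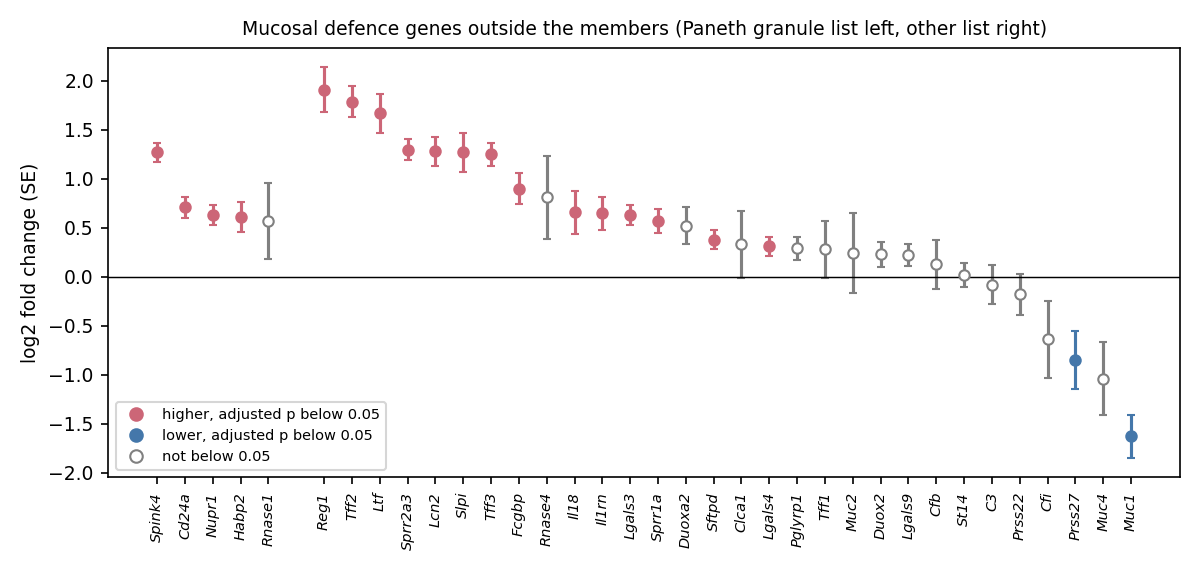
Log2 fold change with SE, OE-labelled over control, of the 35 tested genes of the mucosal defence list; red marks genes called higher, blue genes called lower and open grey genes not called. Of the genes shown 18 are higher and 2, Prss27 and Muc1, lower.

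Pigr passes together with its cargo through the recycling endosome. Of 11 genes listed for antibody transport across the epithelium 10 were tested, with 5 higher and 0 lower. Over all tested genes 16.5% were called higher and 12.7% lower. This list too was chosen with earlier results known, so its counts are not evidence about such transport. The small GTPases Rab11a and Rab25, which mark that compartment, rose by 0.83 (SE 0.10, edgeR adjusted p = 0.000232) and 0.77 (SE 0.12, edgeR adjusted p = 0.00061). Rab11fip5, a Rab11 effector, rose by 0.70 (SE 0.12, edgeR adjusted p = 0.00147) and Rabac1 by 0.55 (SE 0.12, edgeR adjusted p = 0.00599). Rabac1 was not called with the GC offset (0.29, edgeR adjusted p = 0.114). The fifth was Fcgrt, the neonatal Fc receptor, a carrier separate from Pigr. Fcgrt rose by 1.01 in log2 units (SE 0.23, edgeR adjusted p = 0.00609) and was named after its value was seen. Rab11a and Rab11fip5 each share exons with another gene on the same strand. Pigr itself remained at the level given above.

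Genes known to act upstream of these products were counted in the same way. Of 79 regulators listed, 60 were tested, 9 were higher and 4 lower, with a median log2 fold change of 0.10. Over all tested genes 16.5% were called higher and 12.7% lower, and the median was 0.04. These counts are therefore not read as a result about the regulators. Among regulators of Paneth and secretory fate, 4 of 23 tested were higher and 2 lower. Atoh1, the factor that commits cells to the secretory lineage, had a mean of 0.154 CPM in the control libraries against 0.131 CPM with the OE label, under the level of 3 counts. Sox9, required for Paneth cells, rose from 343.3 ± 9.28 to 513.6 ± 71.3 CPM (SD, n = 3; log2 fold change 0.58, SE 0.11, edgeR adjusted p = 0.00277). Ctnnb1, which encodes beta-catenin, rose by 0.51 (SE 0.08, edgeR adjusted p = 0.001), and its exons overlap genes on both strands. Ephb3, a receptor that positions Paneth cells, rose by 0.73 (SE 0.18, edgeR adjusted p = 0.00852), a call that ended at edgeR adjusted p = 0.05 once GC content was offset, and was lost without control replicate 3 (edgeR adjusted p = 0.0556) or OE-labelled replicate 2 (edgeR adjusted p = 0.0528). Tcf7l2, the WNT effector that switches on Paneth genes, fell by 0.43 in log2 units (SE 0.12, edgeR adjusted p = 0.0146), a call lost without control replicate 1 (edgeR adjusted p = 0.0595), 2 (0.0792) or 3 (0.0525).

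Interleukin and microbial signals that induce Reg3 and lysozyme genes in the gut were the second set of regulators. Here 5 of 37 tested genes were higher and 2 lower, against 16.5% and 12.7% of all tested genes. Il17re, a subunit of the receptor for the epithelial cytokine IL-17C, rose from 103.7 ± 7.69 to 170.4 ± 15.5 CPM (SD, n = 3; log2 fold change 0.72, SE 0.12, edgeR adjusted p = 0.000964). Il6st, the shared receptor subunit of the IL-6 family, rose by 0.63 (SE 0.16, edgeR adjusted p = 0.0107), a call lost without control replicate 2 (edgeR adjusted p = 0.0581) or 3 (0.0533). Chuk, a kinase of the NF-kB pathway, fell by 1.01 in log2 units (SE 0.26, edgeR adjusted p = 0.0123), and this call was lost without control replicate 2 (edgeR adjusted p = 0.0645) or 3 (0.0531). Nfkbiz, a nuclear cofactor of NF-kB, fell by 0.60 in log2 units (SE 0.16, edgeR adjusted p = 0.0131), lost without control replicate 1 (edgeR adjusted p = 0.0741). The IL-22 receptor gene Il22ra1 lay under the level of 3 counts in both groups (means 0.313 and 0.407 CPM), and Stat3 was at 214.5 ± 11.7 and 204.6 ± 38.4 CPM (SD, n = 3; log2 fold change -0.07, SE 0.13). The 13 regulator calls became 8 with DESeq2's test, 7, 7 and 4 without control replicates 1, 2 and 3, and 22 without OE-labelled replicate 3.

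Markers of other cell types were read beside these genes. The summed level of 8 goblet markers was 130.4 to 135.0 CPM in the control libraries against 255.6 to 282.8 CPM with the OE label, with Tff3, Fcgbp and Ramp1 called higher and Muc2, Clca1 and Spdef not called. The call of Ramp1 (edgeR adjusted p = 0.0451) was lost in 10 of 16 alternatives, including leaving out control replicate 1 (edgeR adjusted p = 0.182) or 2 (0.157) and any 1 OE-labelled library (0.0521 to 0.105). The sum of 9 enterocyte markers, nearly all of it Vil1, was 68.0 to 69.6 and 95.6 to 117.1 CPM, with 6 of the 9 at 0. That of 7 tuft markers was 142.8 to 158.5 and 182.9 to 221.5 CPM. Most of it was Dclk1, which overlapped between groups and was not called (0.22, SE 0.12), while Avil was called higher (0.93, edgeR adjusted p = 0.00072). Of 11 macrophage and monocyte markers 5 were at 0, among them Adgre1, C1qa and Tyrobp. The sum of 41.8 to 52.5 and 62.6 to 77.4 CPM came almost entirely from Csf1r and Cd68. Csf1r was called higher (0.68, edgeR adjusted p = 0.0061) and Cd68 was not called. The sums of enteroendocrine, neutrophil, lymphocyte and plasma cell, fibroblast and endothelial markers were at most 1.41 CPM in any library. The sum of 5 stem cell markers was 36.9 to 39.2 CPM in control and 40.5 to 64.7 CPM in OE-labelled libraries, with Ascl2 called higher (1.52, edgeR adjusted p = 0.0292) and Lgr5, Olfm4 and Axin2 not called. The call of Ascl2 was lost in 5 of 16 alternatives, the GC offset (edgeR adjusted p = 0.0603) and leaving out control replicate 1 (0.065) or 2 (0.089) or OE-labelled replicate 1 (0.0521) or 2 (0.084). The 6 epithelial markers summed to 3936 to 4167 CPM in control and 5313 to 6011 CPM in OE-labelled libraries. Of these, the keratin genes Krt8 (0.74), Krt18 (0.92) and Krt19 (0.66) and the villin gene Vil1 (0.65) were called higher, and Epcam (0.07) and Cdh1 (-0.12) were not called. Goblet, enterocyte, tuft, macrophage, stem cell and epithelial marker sums were thus higher in each OE-labelled library than in any control library. Vil1 counts in both the enterocyte and the epithelial sum. The 6 defence genes tested showed the same pattern, which was found for 25.3% of all tested genes. The part of these cell types in the result was not tested.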

How the data were processed

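The values the authors deposited are estimated counts, not normalized, of 52249 mouse genes. Per the labels' protocols, libraries were made from 500 ng of column-purified, DNase-treated total RNA with a 3′ forward kit. Per the submitters' processing notes, STAR and HTSeq were used with mm10 (GRCm38); versions, settings, annotation, strand and multi-mapping treatment are not given in the sources used here. Columns were matched to samples by library name, and groups come from the titles. Fractional values (2843, 3.1% of values above 0) were rounded. The 6 libraries were fitted together in R 4.3.3 with edgeR 4.0.16 (quasi-likelihood F-test, filterByExpr, TMM factors, no covariates, Benjamini-Hochberg adjustment over 10687 genes). SE was taken as the absolute log2 fold change over the root of its F value. Alternatives used DESeq2 1.42.0, limma 3.58.1 (voom), other scalings and filters, offsets for GC content (loess span 0.5), a replicate block, and fits without each library. The fits were tested on simulated counts. Positions, overlaps and transcripts come from GENCODE M21 (GRCm38; 99.5% of identifiers matched), and promoters, aligned with Biopython 1.88, from RefSeq.

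The members and lists were chosen with earlier results of these data known. Text names every member, up to 4 called genes of each list by smallest p, every tested family relative and the nearest profiles. Igf2bp3 and Apc were named as a check of the labels. Other genes, including markers, neighbours, Muc2, Atoh1, Il22ra1 and Stat3, were named outside this rule, which is not said at each. Among these, Fcgbp, Ramp1, Ascl2, Krt8, Krt18, Krt19 and Vil1 were named after their values were seen. No molecular identifiers are described, and PCR copies of 1 molecule are not independent, so floors cover counting error only.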

Additional observations from a re-analysis of the deposited data

How the results depend on the processing

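Of 96 values of the 6 tested members under 16 alternatives, 86 kept direction and call and 0 changed sign. The 10 calls lost were all those of Wfdc2, whose log2 fold change ran from 0.09 to 0.40. The members were chosen with this contrast known and the alternatives refit the same libraries, so the calls kept are not evidence about the members. The members called ranged from 5 to 6 and the mucosal defence calls from 14 to 21 (main 20). At an adjusted p below 0.01, 1578 of all genes and 4 regulators were called, against 3118 and 13, and DESeq2's test called 8 regulators (edgeR with TMM called 13). Leaving out 1 library at a time gave 1748 to 3532 genes, lowest without control replicate 3 (1893 and 1837 without control replicates 1 and 2), and 4 to 22 regulators. Mmp14 changed sign without OE-labelled replicate 1 (0.07), and ran from -0.22 to 0.07 over these fits; the cause was not tested. Across 44 other named genes, 651 of 704 values kept direction and call. A replicate block in the fit gave 3112 genes, 6 members, 20 defence genes and 13 regulators called, and no named gene lost its call under it. Equally numbered libraries deviated from their group means with correlations of 0.1, 0.02 and 0.07, so the numbers were not taken to pair them. The GC offset gave 2458 genes and, with the block, 2722; log2 fold change followed GC content over 10679 genes (Spearman 0.37, genes not being independent). Depth limits Pigr, Wfdc18 in control libraries and the genes at 0.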

Other observations

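The genes beside the members on the chromosome were read as a further description. Within 100 kb of a member, 80 other annotated genes of the table were found. Of these, 13 were tested, with 2 called higher, 1 lower and 10 neither. Over all tested genes 16.5% were called higher and 12.7% lower. The 3 called genes were named after their values were seen. Reg1, between Reg3b and Reg3g, was the one described with the Reg family. AA986860, near Pigr, rose from 62.4 ± 5.48 to 92.4 ± 6.86 CPM (SD, n = 3; log2 fold change 0.57, SE 0.13, edgeR adjusted p = 0.00546) while Pigr had the low counts given above. Pigt, near Wfdc2 and coding for a subunit of the GPI transamidase, fell from 32.6 ± 3.01 to 15.0 ± 2.04 CPM (SD, n = 3; log2 fold change -1.11, SE 0.19, edgeR adjusted p = 0.0011). The other tested neighbours were not called, among them Tmem123 beside Mmp7 (-0.04, SE 0.12), Fgfr2 beside Dmbt1 (0.17, SE 0.13), Heatr6 beside Wfdc18 (-0.26, SE 0.16), and Yeats4 (0.03, SE 0.18) and Cpsf6 (-0.23, SE 0.14) beside the lysozyme genes. Thus Yeats4 and Cpsf6 were counted at 64.6 to 75.7 CPM on group means next to Lyz1 and Lyz2, which had 0 counts.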
